A study of Mus musculus with 15 samples.

Results

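Mouse livers carrying a mutant β-catenin (S45Y-CTNNB1), a mutant NRF2 (G31A-NFE2L2) and human MET were compared with livers carrying S45Y-CTNNB1 and G31A-NFE2L2 without human MET. These are called triple livers and CTNNB1/NFE2L2 livers below, with 3 libraries each, chosen by their labels alone, and they are 6 of the 15 libraries in the series. Both groups carry the mutant β-catenin and the mutant NRF2, so human MET is the only labelled difference between them. All mice were male FVB/NJ, and RNA was isolated from fresh frozen liver with an RNeasy Mini kit and sequenced as polyA libraries on Illumina protocols. The labels give no age, vector, promoter, delivery route, time after delivery or pairing. Nothing in them says that the libraries came from separate animals, so p-values set the group difference against the spread between libraries. That spread was estimated over all 15 libraries. Of 24411 genes listed in the files, 14098 had enough counts to be tested.

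MET is the receptor tyrosine kinase for hepatocyte growth factor (HGF); in liver it signals through the RAS-ERK and PI3K-AKT pathways and is known for driving hepatocyte growth and regeneration. β-catenin carries the WNT signal to the nucleus and, in the normal lobule, maintains the gene programme of hepatocytes around the central vein. NRF2, encoded by Nfe2l2, activates genes for glutathione metabolism and detoxification when it escapes KEAP1. Activated β-catenin, NRF2 and MET are all known from human hepatocellular carcinoma.

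Gene counts summed to 17226049 to 18327139 per library in triple livers and 16936108 to 18551460 in CTNNB1/NFE2L2 livers, and to 14084343 to 20702618 over the whole series. Unmapped reads made up 10.3 ± 1.41% of reads in triple livers and 10.7 ± 1.03% in CTNNB1/NFE2L2 livers (mean ± SD, n = 3). Triple replicate 1 stood apart from the other triple libraries on the second principal component of all 15 libraries, with a score of 46.0 against 1.85 and 4.14. Of the 3 libraries that the submitters marked as added, 1 is among the 6, triple replicate 3. Replicates of a group differed by more than sampling noise, with a chi-square per gene of 14.1 or more in each of the 15 pairs. Hepatocyte genes were abundant in both groups, and the albumin gene Alb is described below because it differed between them. Levels are given as CPM, counts scaled to a common library total after TMM normalization. Differences are log2 fold changes of triple over CTNNB1/NFE2L2 livers ± standard error, tested with edgeR's quasi-likelihood F test and adjusted by Benjamini-Hochberg over all tested genes, with a threshold of 0.05. In whole liver, a change in the share of a cell type and a change in RNA per cell cannot be told apart.

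With human MET, 3520 of 14098 genes changed, which is 25% of those tested; 1853 rose (13.1%) and 1667 fell (11.8%). The counts of every gene list below are to be read against these shares. At least 2-fold changes were found for 958 genes (6.8%), of which 559 rose (3.97%) and 399 fell (2.83%). The median log2 fold change over all tested genes was 0.027. Every triple library was above every CTNNB1/NFE2L2 library for 23.5% of tested genes, and below for 20.2%. Groups that do not overlap were thus common, whether or not a gene passed the test. Leaving out 1 library at a time lowered the count to as few as 2259 genes, without CTNNB1/NFE2L2 replicate 2, and 1863 calls held in all 6 of these fits, 922 rises and 941 falls. The number of rises was 1230 without triple replicate 1 and 1141 without CTNNB1/NFE2L2 replicate 2. The mouse genes of the introduced factors did not pass the test. Met had 86.6, 79.2 and 83.8 CPM in triple livers, against 82.5, 85.7 and 78.8 CPM in CTNNB1/NFE2L2 livers (log2 fold change 0.016 ± 0.15, adjusted p = 0.953), but reads of human MET align only in part to the mouse gene, so these values do not measure the introduced receptor. Ctnnb1 (log2 fold change 0.26 ± 0.11, adjusted p = 0.103) and Nfe2l2 (log2 fold change 0.012 ± 0.19, adjusted p = 0.974) did not pass either, and their mutant forms were introduced in both groups; the labels name only MET as human. Ctnnb1 shares exons with an opposite-strand gene, Ulk4, and the counts are unstranded.

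**Figure D1:**
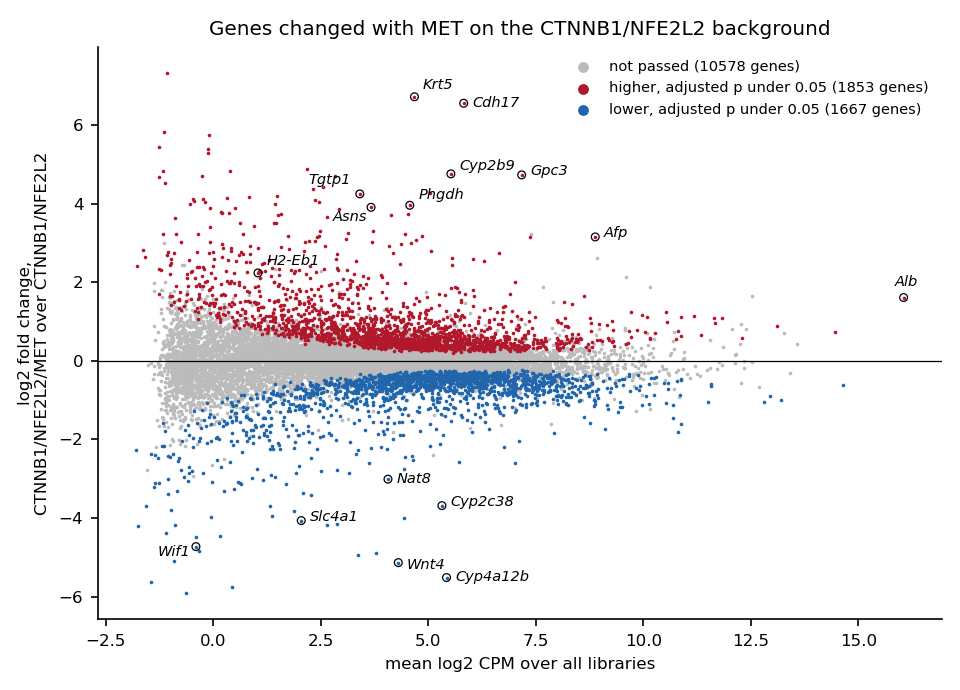
Each point is a tested gene, with its mean log2 CPM over all 15 libraries on the x axis and its log2 fold change of triple (CTNNB1/NFE2L2/MET) over CTNNB1/NFE2L2 livers on the y axis. Red points are the 1853 genes that rose and blue points the 1667 that fell, and circles mark genes named in the text, from Krt5 at 6.72 to Cyp4a12b at -5.51.

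The largest rises among well-expressed genes (mean log2 CPM of at least 3 over all 15 libraries, numbered gene models left out) were in epithelial, oncofetal and amino acid synthesis genes. Krt5, a keratin of basal epithelial cells located on chromosome 15, 101707069 to 101712905 (GRCm38), had 115.8, 70.8 and 77.5 CPM in triple livers, against 1.16, 0.418 and 0.889 CPM in CTNNB1/NFE2L2 livers. Cdh17, an intestinal and fetal liver cadherin (chromosome 4, 11758157 to 11817905), had 255, 201 and 198 CPM in triple livers, against 2.85, 1.88 and 2.17 CPM in CTNNB1/NFE2L2 livers. Both genes were low in all 3 CTNNB1/NFE2L2 libraries and high in all 3 triple libraries, with a log2 fold change of 6.72 ± 0.50 for Krt5 (adjusted p = 4.66e-06) and 6.56 ± 0.41 for Cdh17 (adjusted p = 1.77e-06). Gpc3, which encodes the cell-surface proteoglycan glypican-3 used as a marker of hepatocellular carcinoma (chromosome X, 52272426 to 52613974), had 665, 356 and 262 CPM in triple livers, against 19.9, 14.8 and 13.6 CPM in CTNNB1/NFE2L2 livers. Every triple library exceeded every CTNNB1/NFE2L2 library, and triple replicate 1 was the highest (log2 fold change 4.73 ± 0.45, adjusted p = 3.20e-05). Tspan8, a tetraspanin of biliary and intestinal epithelium, had 46.6, 17.7 and 22.2 CPM in triple livers, against 1.88, 1.202 and 1.33 CPM in CTNNB1/NFE2L2 livers (log2 fold change 4.27 ± 0.51, adjusted p = 1.72e-04).

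Dlk1, an imprinted fetal Notch-family ligand, had 1.84, 4.95 and 3.11 CPM in triple livers, against 0.580, 0.209 and 0.167 CPM in CTNNB1/NFE2L2 livers. The groups did not overlap (log2 fold change 3.31 ± 0.58, adjusted p = 0.00133), yet the level in triple livers stayed well below the 59.6 ± 25.3 CPM (n = 3) of livers with S45Y-CTNNB1 and human MET but no mutant NRF2. Abcd2, a peroxisomal transporter of very-long-chain fatty acids, had 25.3, 33.3 and 29.3 CPM in triple livers, against 2.80, 2.09 and 1.61 CPM in CTNNB1/NFE2L2 livers (log2 fold change 3.74 ± 0.23, adjusted p = 2.21e-07). Bmp8b, a BMP ligand, had 35.1, 19.1 and 20.2 CPM in triple livers, against 2.85, 2.56 and 2.28 CPM in CTNNB1/NFE2L2 livers (log2 fold change 3.27 ± 0.33, adjusted p = 1.70e-05). Its exons overlap Ppie on the opposite strand. Tgtp1, an interferon-induced GTPase with near-identical copies, rose with a log2 fold change of 4.25 ± 0.35 (adjusted p = 4.79e-06). None of these genes overlapped between the groups.

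The largest falls included genes whose mean was highest in the CTNNB1/NFE2L2 group of all 5 groups. Wnt4, a WNT ligand (chromosome 4, 137277635 to 137299501), had 3.69, 2.69 and 1.41 CPM in triple livers, against 129, 93.2 and 50.4 CPM in CTNNB1/NFE2L2 livers (log2 fold change -5.13 ± 0.42, adjusted p = 8.92e-06). Its mean was 1.27 ± 0.161 CPM in CTNNB1/MET livers, 0.871 ± 0.691 CPM in NFE2L2/MET livers and 1.45 ± 0.366 CPM in wild-type livers, so the triple libraries lay near these groups and the 3 CTNNB1/NFE2L2 libraries far above them. Olfm1, a secreted olfactomedin, had 3.69, 6.78 and 5.11 CPM in triple livers, against 114, 68.0 and 68.8 CPM in CTNNB1/NFE2L2 livers (log2 fold change -4.00 ± 0.37, adjusted p = 1.72e-05). The CTNNB1/NFE2L2 libraries again lay far above the means of the other groups, which included 6.83 ± 1.65 CPM in CTNNB1/MET livers. Slc39a2, a zinc importer named after its values were seen, had 16.6, 17.6 and 17.5 CPM in triple livers, against 82.8, 114 and 103.1 CPM in CTNNB1/NFE2L2 livers (log2 fold change -2.53 ± 0.16, adjusted p = 2.21e-07).

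Cyp4a12b, a male-specific fatty acid hydroxylase, had the largest fall of these well-expressed genes, with 3.23, 4.76 and 3.89 CPM in triple livers, against 204, 156 and 185 CPM in CTNNB1/NFE2L2 livers (log2 fold change -5.51 ± 0.36, adjusted p = 1.77e-06). Its near-identical neighbour Cyp4a12a also fell (log2 fold change -1.84 ± 0.25, adjusted p = 2.45e-04). The division of reads between the copies is uncertain. Cyp2c38 (-3.68 ± 0.28) and Cyp2c39 (-2.61 ± 0.23), members of a multi-copy P450 family, fell with adjusted p = 3.03e-06 and 6.11e-06. Nat8, an N-acetyltransferase of the mercapturic acid pathway, had 4.10, 7.69 and 7.25 CPM in triple livers, against 38.6, 55.1 and 60.1 CPM in CTNNB1/NFE2L2 livers (log2 fold change -3.01 ± 0.23, adjusted p = 1.77e-06), with close copies that make its count uncertain. Gnai1, an inhibitory G protein subunit, fell with a log2 fold change of -2.87 ± 0.24 (adjusted p = 2.95e-06), endothelial lipase Lipg with one of -2.59 ± 0.49 (adjusted p = 0.00260) and Ildr2, an endoplasmic reticulum membrane protein linked to lipid metabolism, with one of -2.57 ± 0.34 (adjusted p = 2.88e-04). The fall of Moxd1, a monooxygenase-like protein, was uneven. It had 0.461, 0.721 and 0.0973 CPM in triple livers, against 20.3, 0.679 and 17.5 CPM in CTNNB1/NFE2L2 livers, the groups overlapped, and its call (adjusted p = 0.0457) was lost when any library other than CTNNB1/NFE2L2 replicate 2 was left out, with adjusted p up to 0.133.

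**Figure D2:**
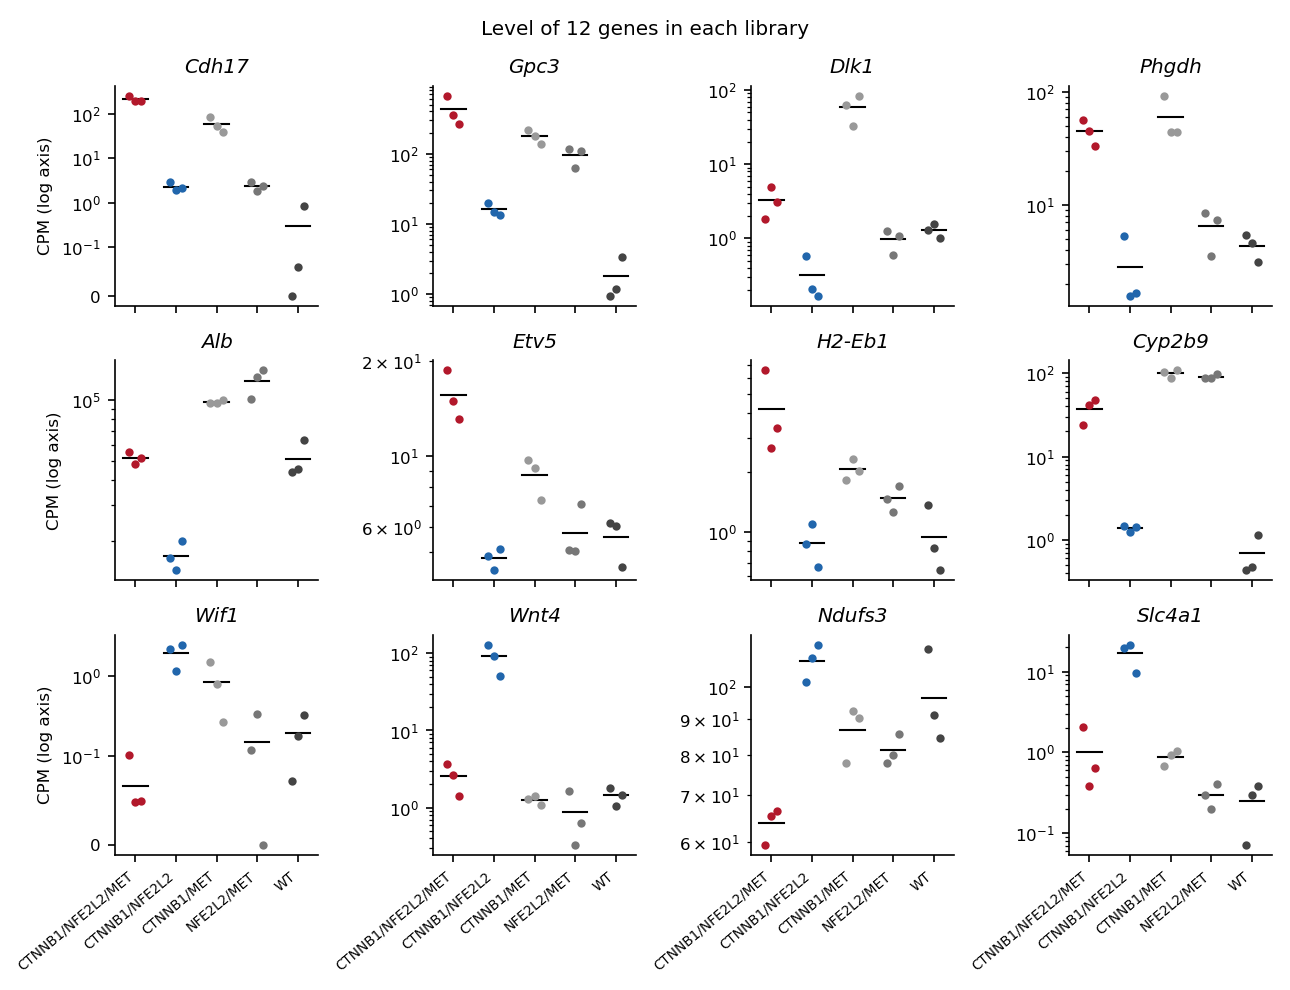
Level of 12 genes in CPM, on logarithmic y axes (linear near 0 for Cdh17 and Wif1), in each library of the 5 groups on the x axis; points are libraries and horizontal bars are group means. Triple libraries (red) lie apart from CTNNB1/NFE2L2 libraries (blue) for every gene shown, with Cdh17, Gpc3, Dlk1, Phgdh, Alb, Etv5, H2-Eb1 and Cyp2b9 higher and Wif1, Wnt4, Ndufs3 and Slc4a1 lower.

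Genes that respond to ERK signalling rose more often than tested genes as a whole, while no gene of the PI3K-AKT and mTOR list rose. Of 24 tested ERK output and feedback genes, 10 rose and 0 fell, or 41.7% against 13.1% of all tested genes, with a median log2 fold change of 0.77. The summed level of the list overlapped, with 1088 to 1374 CPM in triple livers and 1122 to 1163 CPM in CTNNB1/NFE2L2 livers. In wild-type livers it was 1108 to 1812 CPM. Etv5, an ETS transcription factor downstream of receptor tyrosine kinases, had 18.6, 14.95 and 13.1 CPM in triple livers, against 4.88, 4.39 and 5.11 CPM in CTNNB1/NFE2L2 livers. All 3 triple libraries exceeded all CTNNB1/NFE2L2 libraries (log2 fold change 1.70 ± 0.19, adjusted p = 2.60e-05). Its paralogue Etv4 was low, with 1.08, 1.35 and 0.535 CPM in triple livers, against 0.290, 0.157 and 0.111 CPM in CTNNB1/NFE2L2 livers (log2 fold change 2.34 ± 0.55, adjusted p = 0.00602). Spry4, a feedback inhibitor of receptor tyrosine kinase signalling, had 8.91, 6.11 and 7.01 CPM in triple livers, against 2.17, 1.99 and 1.56 CPM in CTNNB1/NFE2L2 livers (log2 fold change 1.94 ± 0.27, adjusted p = 1.92e-04). The related inhibitors Spred1 (1.04 ± 0.13, adjusted p = 1.02e-04) and Spred2 (0.84 ± 0.18, adjusted p = 0.00417) rose as well.

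Fosl1, an AP-1 subunit induced by ERK, had 1.79, 1.35 and 0.584 CPM in triple livers, against 0.338, 0.209 and 0.111 CPM in CTNNB1/NFE2L2 livers (log2 fold change 2.44 ± 0.61, adjusted p = 0.00922), although Ccdc85b overlaps its exons on the opposite strand. The ERK phosphatase genes Dusp5 (1.37), Dusp4 (0.77) and Dusp6 (0.79) and the receptor gene Epha2 (0.83) made up the other rises; each of these calls was lost without triple replicate 1 and without CTNNB1/NFE2L2 replicate 3, and those of Dusp5, Dusp6 and Epha2 also without CTNNB1/NFE2L2 replicate 2. Without triple replicate 1 the list had 6 rises and 1 fall. Highest adjusted p-values over these fits were 0.0680 for Dusp5, 0.0847 for Dusp4, 0.113 for Dusp6 and 0.0970 for Epha2. Spry2, another member of the feedback family, did not pass (log2 fold change -0.25 ± 0.34, adjusted p = 0.634), and neither did Spry1 (log2 fold change 0.81 ± 0.34, adjusted p = 0.0952). In the PI3K, AKT and mTOR list 3 of 22 members fell and 0 rose, against 11.8% and 13.1% of all tested genes. The falls were Tsc2 (-0.52), a negative regulator of mTORC1, Foxo3 (-0.65), a forkhead factor inhibited by AKT, and Mtor (-0.50) itself, with adjusted p = 0.00198, 0.00266 and 0.00314. The rises numbered 1 without triple replicate 2 or CTNNB1/NFE2L2 replicate 1. The falls numbered 6 in a fit of only the 6 libraries and 5 with DESeq2.

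Genes around the MET receptor rose more often than they fell. Among genes for the MET ligand, its activation and its adaptors, 10 of 24 tested members rose and 2 fell (median 0.40). These shares were 41.7% and 8.33%, against 13.1% and 11.8% of all tested genes, so the share of falls was not above that of all genes. Hgf, made by stellate cells, had 3.58, 2.84 and 4.38 CPM in triple livers, against 1.69, 1.25 and 1.06 CPM in CTNNB1/NFE2L2 livers (log2 fold change 1.42 ± 0.28, adjusted p = 0.00196). Hgfac, the protease that activates HGF, had 115, 94.6 and 85.7 CPM in triple livers, against 42.5, 44.7 and 54.7 CPM in CTNNB1/NFE2L2 livers (log2 fold change 1.06 ± 0.13, adjusted p = 8.85e-05). The groups did not overlap for either gene, but wild-type livers had 3.92 ± 1.38 CPM of Hgf and 126 ± 14.5 CPM of Hgfac, so it was the CTNNB1/NFE2L2 libraries that were lowest. Plxnb1, a plexin that associates with MET, had 104, 85.9 and 81.0 CPM in triple livers, against 34.3, 33.9 and 39.0 CPM in CTNNB1/NFE2L2 livers (log2 fold change 1.34 ± 0.17, adjusted p = 1.19e-04). Plaur, the urokinase receptor, had 19.05, 12.6 and 8.22 CPM in triple livers, against 4.64, 2.67 and 1.95 CPM in CTNNB1/NFE2L2 livers (log2 fold change 2.10 ± 0.40, adjusted p = 0.00196). Integrin α3 (Itga3) rose with a log2 fold change of 1.52 ± 0.27 (adjusted p = 0.00142). The falls were Spint2, an inhibitor of HGF activation (-0.42 ± 0.13, adjusted p = 0.0328), and Hpn, the HGF-activating protease hepsin (-0.32 ± 0.11, adjusted p = 0.0467). The falls numbered 0 without triple replicate 3 or CTNNB1/NFE2L2 replicates 2 or 3 and 1 without triple replicates 1 or 2 or CTNNB1/NFE2L2 replicate 1. In the EGFR family list 1 of 9 tested members rose, the ligand gene Btc (log2 fold change 1.11 ± 0.34, adjusted p = 0.0265). Here rises numbered 0 without triple replicate 1 or CTNNB1/NFE2L2 replicates 2 or 3 and 3 without triple replicate 3.

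In the mitosis and spindle list 4 of 30 members rose and 0 fell, with rises at 13.3% against 13.1% of all genes, with a median of 0.26. The proliferation marker Mki67 had 63.9, 91.1 and 67.9 CPM in triple livers, against 54.1, 56.3 and 42.6 CPM in CTNNB1/NFE2L2 livers. Triple libraries were all higher, at the margin of the threshold (log2 fold change 0.54 ± 0.19, adjusted p = 0.0487). The call was lost with RLE size factors, with DESeq2 and in 5 of the 6 fits that left out a library (adjusted p up to 0.201). The rises numbered 0 without triple replicate 2 or CTNNB1/NFE2L2 replicate 3 and 1 without CTNNB1/NFE2L2 replicate 1. In wild-type livers Mki67 averaged 3.22 ± 0.539 CPM, so both transgenic groups were far above it. In the DNA replication list 1 of 35 members rose and 2 fell; the rise was lost when any library other than CTNNB1/NFE2L2 replicate 1 was left out. Here falls numbered 0 without triple replicates 1 or 3 or CTNNB1/NFE2L2 replicates 2 or 3. Ccnd1, which encodes cyclin D1, did not pass (log2 fold change -0.29 ± 0.19, adjusted p = 0.276). Phlda3, a p53 target, rose with a log2 fold change of 1.54 ± 0.26 (adjusted p = 7.85e-04) in a list of cyclin-dependent kinase inhibitors, D cyclins and p53 targets in which 3 of 26 rose and 2 fell. Members that rose numbered 1 without triple replicate 1 or CTNNB1/NFE2L2 replicates 2 or 3, and the falls 0 without CTNNB1/NFE2L2 replicates 2 or 3 and 1 without triple replicates 1 or 3 or CTNNB1/NFE2L2 replicate 1. DNA damage and repair genes gave 1 rise and 1 fall of 20. Here rises numbered 0 without triple replicate 3 or CTNNB1/NFE2L2 replicates 1 or 3, and the falls 0 without triple replicate 3 or CTNNB1/NFE2L2 replicate 2 and 2 without triple replicate 1.

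Serine and asparagine synthesis genes rose together. Phgdh, the first enzyme of serine synthesis (chromosome 3, 98313171 to 98339969), had 56.6, 44.7 and 33.3 CPM in triple livers, against 5.27, 1.57 and 1.67 CPM in CTNNB1/NFE2L2 livers (log2 fold change 3.96 ± 0.50, adjusted p = 2.45e-04). Psat1, the next enzyme, had 101.2, 75.3 and 59.0 CPM in triple livers, against 11.2, 9.46 and 7.23 CPM in CTNNB1/NFE2L2 livers (log2 fold change 3.07 ± 0.31, adjusted p = 3.19e-05). Psph, the last step, had 18.5, 15.7 and 16.1 CPM in triple livers, against 10.5, 8.31 and 7.45 CPM in CTNNB1/NFE2L2 livers (log2 fold change 0.93 ± 0.16, adjusted p = 8.84e-04), with Cct6a overlapping its exons on the opposite strand. For all 3 enzymes the triple libraries lay above the CTNNB1/NFE2L2 libraries, and the fold change was smallest for Psph. Asns, asparagine synthetase (chromosome 6, 7675165 to 7693209), had 69.1, 29.4 and 32.1 CPM in triple livers, against 4.20, 2.46 and 1.95 CPM in CTNNB1/NFE2L2 livers (log2 fold change 3.91 ± 0.41, adjusted p = 4.68e-05). Asns means in CTNNB1/MET, NFE2L2/MET and wild-type livers were 4.87 ± 1.74 CPM, 7.94 ± 0.475 CPM and 3.20 ± 1.21 CPM, so the triple group was highest, whereas Phgdh was at 59.7 ± 27.6 CPM in CTNNB1/MET livers.

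Over the amino acid and nucleotide synthesis list 14 of 29 tested members rose (48.3%, against 13.1% of all genes) and 2 fell, with a median of 0.40. The summed level of the list was nevertheless lower, with 3760 to 4448 CPM in triple livers, against 4888 to 5355 CPM in CTNNB1/NFE2L2 livers. Mthfd2, a mitochondrial folate enzyme, rose with a log2 fold change of 1.40 ± 0.24 (adjusted p = 8.83e-04) and the pyrimidine synthesis enzyme Cad with one of 0.89 ± 0.19 (adjusted p = 0.00342). Shmt2, the mitochondrial serine hydroxymethyltransferase, went the other way, with 154, 147 and 147 CPM in triple livers, against 210.1, 233 and 219 CPM in CTNNB1/NFE2L2 livers (log2 fold change -0.56 ± 0.11, adjusted p = 0.00156). The second fall was glutamine synthetase, described with the β-catenin targets. The falls numbered 1 without triple replicates 2 or 3 or CTNNB1/NFE2L2 replicates 2 or 3.

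The endoplasmic reticulum chaperone Hspa5 had 1267, 1197 and 1394 CPM in triple livers, against 856, 451 and 424 CPM in CTNNB1/NFE2L2 livers. The CTNNB1/NFE2L2 libraries were uneven, with replicate 1 the highest of them, and the groups did not overlap (log2 fold change 1.16 ± 0.31, adjusted p = 0.0143; adjusted p up to 0.0673 without CTNNB1/NFE2L2 replicate 2 or 3). The disulfide isomerase Pdia6 rose with a log2 fold change of 1.01 ± 0.16 (adjusted p = 4.86e-04), with Atp6v1c2 on the opposite strand. In the unfolded protein and integrated stress response list 11 of 26 rose and 1 fell (median 0.60). Here rises numbered 6 without CTNNB1/NFE2L2 replicates 2 or 3, and the falls 2 without CTNNB1/NFE2L2 replicate 3. The rises of Psat1, Asns, Phgdh and Mthfd2 and the fall of Shmt2 are shared with the amino acid and nucleotide synthesis list. The counts of these lists are therefore not separate. The stress regulators themselves did not pass: Atf4 (log2 fold change 0.39 ± 0.17, adjusted p = 0.105), Ddit3 (log2 fold change -0.34 ± 0.35, adjusted p = 0.513) and Atf3 (log2 fold change -1.12 ± 0.49, adjusted p = 0.115). Nor did the ATF4 targets Trib3 (log2 fold change 0.85 ± 0.41, adjusted p = 0.158) and Chac1 (log2 fold change 0.40 ± 0.39, adjusted p = 0.494). Cytosolic aminoacyl-tRNA synthetases, a family added after the data were seen, gave 13 rises and 1 fall of 20. Asparaginyl-tRNA synthetase Nars rose with a log2 fold change of 1.01 ± 0.094 (adjusted p = 6.60e-06), Tars with one of 0.99 ± 0.13 (adjusted p = 1.01e-04) and Iars with one of 0.77 ± 0.13 (adjusted p = 7.73e-04), while alanyl-tRNA synthetase Aars fell with a log2 fold change of -0.48 ± 0.12 (adjusted p = 0.00823). Without triple replicate 1, the falls numbered 2. Their mitochondrial counterparts gave 1 rise and 1 fall of 17. The mitochondrial rise was lost without triple replicates 2 or 3 or CTNNB1/NFE2L2 replicate 3.

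Promoters of risen genes in this group are shown for the amino acid response element, TGATGNAA, the site through which ATF4 acts on Asns. It was searched on both strands of RefSeq promoters (GRCm38.p6, 250 bases before to 50 after the gene start), and the windows run from 60 bases before to 20 after the match, cut at the gene start, with the match in capitals.
Asns: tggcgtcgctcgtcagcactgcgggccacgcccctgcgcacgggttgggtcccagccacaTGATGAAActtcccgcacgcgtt
Tars: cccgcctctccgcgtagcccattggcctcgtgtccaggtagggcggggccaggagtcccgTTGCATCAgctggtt
Prps1: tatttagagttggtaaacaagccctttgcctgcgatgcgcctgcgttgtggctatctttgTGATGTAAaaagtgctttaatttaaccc
The Asns window is chr6:7693210-7693292 on the minus strand and has the site itself, the Tars window chr15:11399659-11399733 on the minus strand has its reverse complement, and the Prps1 window, from the purine and pyrimidine precursor enzyme, is chrX:140456373-140456460 on the plus strand. The motif was in 1304 of 32851 promoters in the table (3.97%), in 7 of 25 genes with a promoter in the stress response list (28%), in 5 of 13 cytosolic tRNA synthetase genes (38.5%) and in 3 of 26 amino acid and nucleotide synthesis genes (11.5%). Phgdh, Psat1 and Psph had no match in this window. Among the matching genes Aars fell, and Herpud1, Atf3, Trib3, Chac1, Slc7a11, Fgf21, Got1 and Gars did not pass the test. The match is a description of the letters only.

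Subunits of the respiratory chain fell across all 5 complexes. Of 28 subunits in the oxidative phosphorylation list 25 fell and 0 rose, or 89.3% against 11.8% of all tested genes, with a median of -0.55. The number of falls was 16 without CTNNB1/NFE2L2 replicate 3. Widened after the data were seen to all nuclear subunit genes found by symbol, 66 of 78 fell, 0 rose, and 78 had a fold change below 0. By complex, 31 of 36 fell in complex I, 4 of 4 in complex II, 7 of 9 in complex III, 10 of 13 in complex IV and 14 of 16 in ATP synthase, with medians between -0.73 and -0.51. Genes of the mitochondrial genome were not analysed here.

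Ndufv1, the flavoprotein of complex I, had 108, 123 and 102 CPM in triple livers, against 185, 221 and 215 CPM in CTNNB1/NFE2L2 livers (log2 fold change -0.90 ± 0.14, adjusted p = 4.75e-04). Uqcrc1, a core subunit of complex III, had 171, 183 and 186 CPM in triple livers, against 281, 312 and 314 CPM in CTNNB1/NFE2L2 livers (log2 fold change -0.75 ± 0.13, adjusted p = 1.00e-03). Cox5b, a subunit of complex IV, had 120.6, 143 and 117.1 CPM in triple livers, against 204, 222 and 234 CPM in CTNNB1/NFE2L2 livers (log2 fold change -0.79 ± 0.15, adjusted p = 0.00170). Atp5o, the oligomycin-sensitivity subunit of ATP synthase, had 114, 123 and 108 CPM in triple livers, against 191, 196 and 193 CPM in CTNNB1/NFE2L2 livers (log2 fold change -0.74 ± 0.12, adjusted p = 5.33e-04). In each case the CTNNB1/NFE2L2 libraries were all above the triple libraries, and the spread within a group was small beside the gap. Wild-type livers had 185 ± 31.9 CPM of Ndufv1, 283 ± 55.1 CPM of Uqcrc1, 192 ± 43.2 CPM of Cox5b and 175 ± 23.7 CPM of Atp5o, below the CTNNB1/NFE2L2 means and above the triple means. Cytochrome c1 (Cyc1) fell with a log2 fold change of -0.69 ± 0.12 (adjusted p = 8.71e-04) and the succinate dehydrogenase subunit Sdhd with one of -0.50 ± 0.11 (adjusted p = 0.00475).

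NRF1 is a transcription factor known to act on many respiratory genes, and its site, GCGCA and GCGC separated by 1 base, was searched in the same promoter table on both strands. It was in 1512 of 32851 promoters (4.6%), in 17 of 69 complex I to V genes with a promoter (24.6%) and in 13 of 68 mitochondrial ribosomal protein genes (19.1%); base composition was not matched. Examples are shown for a complex II, a complex I and a complex IV subunit, with the match in capitals.
Sdhd: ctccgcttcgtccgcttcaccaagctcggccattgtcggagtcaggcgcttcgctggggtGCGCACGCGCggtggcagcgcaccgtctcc
Ndufs6: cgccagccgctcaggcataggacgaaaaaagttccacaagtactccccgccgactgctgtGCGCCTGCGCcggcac
Cox6a1: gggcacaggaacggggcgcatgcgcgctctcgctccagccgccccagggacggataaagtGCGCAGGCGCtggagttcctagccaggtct
These windows are chr9:50603899-50603988, chr13:73328483-73328558 and chr5:115349046-115349135, all on the minus strand, and the genes fell with a log2 fold change of -0.50 ± 0.11 for Sdhd, -0.50 ± 0.11 for Ndufs6 and -0.91 ± 0.14 for Cox6a1 (adjusted p = 0.00475, 0.00456 and 3.11e-04). Nrf1 itself had a log2 fold change of 0.13 ± 0.14 (adjusted p = 0.520).

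Among mitochondrial ribosomal proteins, a family added after the data were seen, 30 of 77 fell and 0 rose (median -0.21). The falls numbered 19 without triple replicate 1 or CTNNB1/NFE2L2 replicate 3. Cytosolic ribosomal proteins gave 8 rises and 0 falls of 32 (median 0.25). Here rises numbered 5 without triple replicate 1 or CTNNB1/NFE2L2 replicates 1 or 3. Without the 3 marked libraries they numbered 17. Rps6, a small-subunit protein, had 447, 404 and 375 CPM in triple livers, against 279, 287 and 284 CPM in CTNNB1/NFE2L2 livers (log2 fold change 0.53 ± 0.11, adjusted p = 0.00248). The groups did not overlap. Ribosome biogenesis genes gave 10 rises and 0 falls of 20, or 50%, and all 20 had a fold change above 0. Nop58, a box C/D snoRNP core protein, rose with a log2 fold change of 0.82 ± 0.14 (adjusted p = 8.73e-04) and dyskerin, Dkc1, with one of 0.72 ± 0.13 (adjusted p = 0.00103). Proteasome subunits gave 1 rise and 0 falls of 25, below the 13.1% of all genes. The rises numbered 0 without triple replicate 3 or CTNNB1/NFE2L2 replicate 2 and 2 without CTNNB1/NFE2L2 replicate 1. Gpx1, the selenoenzyme that reduces peroxides, was named after its values were seen and had 942, 1114 and 1119 CPM in triple livers, against 3086, 3291 and 3226 CPM in CTNNB1/NFE2L2 livers (log2 fold change -1.60 ± 0.16, adjusted p = 1.48e-05).

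**Figure D3:**
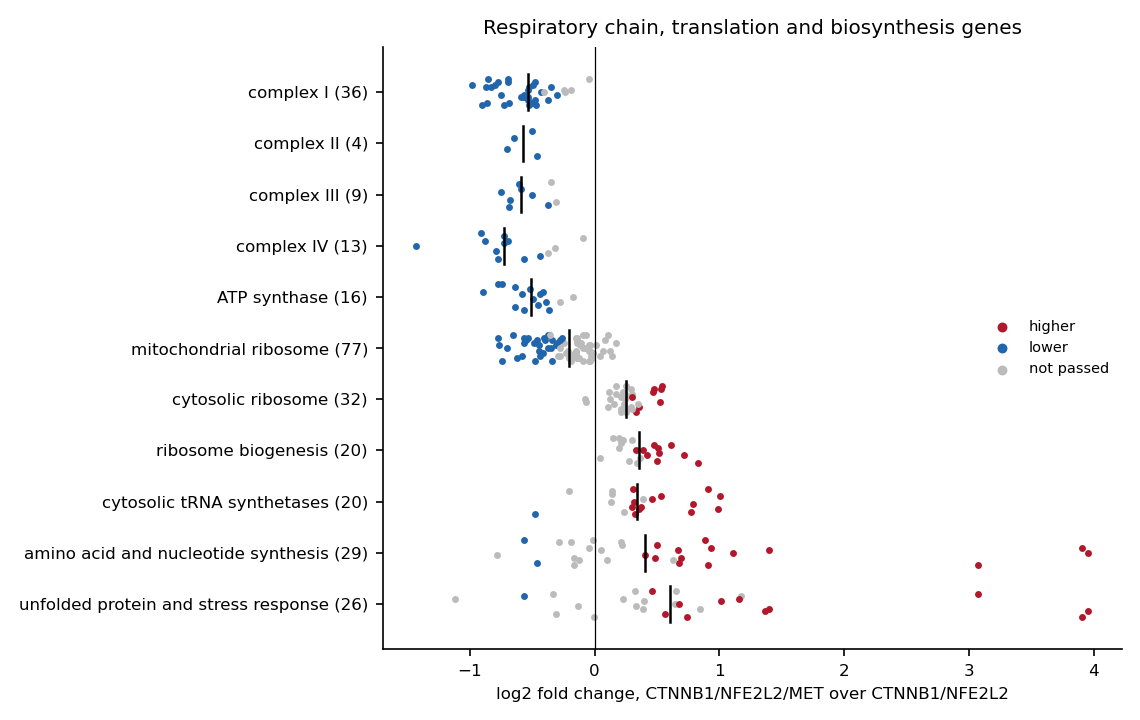
Log2 fold change of triple over CTNNB1/NFE2L2 livers (x axis) for each tested member of 11 gene families (rows, number tested in brackets); points are genes coloured by call, and black bars are medians. All 78 nuclear subunits of complexes I to V lie below 0, while ribosome biogenesis genes lie above 0 and Phgdh, Asns and Psat1 form the far right of the lower rows.

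Among direct β-catenin targets 3 of 17 tested members rose and 3 fell (median 0.12). These shares, 17.6% each, lay near the 13.1% and 11.8% of all tested genes. The secreted WNT inhibitor Wif1 had 0.102, 0.0481 and 0.0486 CPM in triple livers, against 2.17, 1.15 and 2.45 CPM in CTNNB1/NFE2L2 livers (log2 fold change -4.73 ± 0.79, adjusted p = 7.15e-04). The WNT inhibitor Apcdd1 had 5.43, 7.21 and 6.86 CPM in triple livers, against 25.1, 15.9 and 16.7 CPM in CTNNB1/NFE2L2 livers (log2 fold change -1.57 ± 0.31, adjusted p = 0.00227). Both were lower in every triple library, though Apcdd1 stayed above the 0.175 ± 0.133 CPM of wild-type livers. Axin2, a feedback inhibitor of WNT signalling, had 50.9, 47.2 and 40.9 CPM in triple livers, against 31.2, 26.0 and 31.2 CPM in CTNNB1/NFE2L2 livers (log2 fold change 0.65 ± 0.21, adjusted p = 0.0365). Its call was lost in every fit that left out a library other than triple replicate 3, with adjusted p up to 0.134. Rnf43, the ligase that clears WNT receptors, rose with a log2 fold change of 0.88 ± 0.23 (adjusted p = 0.0126, and 0.0580 without CTNNB1/NFE2L2 replicate 3). Rises in the list numbered 0 without CTNNB1/NFE2L2 replicate 3 and 1 without triple replicate 2 or CTNNB1/NFE2L2 replicate 2. Lgr5, the R-spondin receptor, did not pass (log2 fold change 0.046 ± 0.22, adjusted p = 0.905).

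Hepatocyte zonation genes around the central vein fell more often than they rose, with 8 of 21 tested members falling and 2 rising (median -0.46). Here falls numbered 5 without triple replicates 2 or 3 or CTNNB1/NFE2L2 replicates 2 or 3. They also numbered 5 without the 3 marked libraries. Slc22a3, an organic cation transporter, had 7.58, 7.88 and 4.82 CPM in triple livers, against 37.9, 37.3 and 30.2 CPM in CTNNB1/NFE2L2 livers (log2 fold change -2.38 ± 0.19, adjusted p = 1.77e-06), with Plg exons on the opposite strand. Slc1a2, a glutamate transporter, had 359, 335 and 389.6 CPM in triple livers, against 948, 1115 and 875 CPM in CTNNB1/NFE2L2 livers (log2 fold change -1.44 ± 0.19, adjusted p = 1.07e-04). Oat, ornithine aminotransferase, had 434, 451 and 532 CPM in triple livers, against 1124, 1154 and 825 CPM in CTNNB1/NFE2L2 livers (log2 fold change -1.13 ± 0.21, adjusted p = 0.00131). In all these genes the triple libraries were below the CTNNB1/NFE2L2 libraries. Glul, glutamine synthetase, had 3046, 2985 and 2519 CPM in triple livers, against 3779, 4216 and 3768 CPM in CTNNB1/NFE2L2 livers (log2 fold change -0.46 ± 0.15, adjusted p = 0.0308); its call was lost without triple replicate 2 or 3 or CTNNB1/NFE2L2 replicate 2 or 3, with adjusted p up to 0.112, and under total-count scaling. Both groups lay far above the 567 ± 47.5 CPM of Glul in wild-type livers. Of the periportal genes 5 of 20 rose and 1 fell (25% and 5%, against 13.1% and 11.8% of all genes; median 0.16). Rises numbered 3 without triple replicate 3 or CTNNB1/NFE2L2 replicate 2. The fall, of Etnppl, was lost without triple replicate 1 or 2 or CTNNB1/NFE2L2 replicate 3. Urea cycle genes gave 2 falls of 7. The falls numbered 1 without triple replicates 1 or 2 or CTNNB1/NFE2L2 replicates 1, 2 or 3, and the rises 1 without CTNNB1/NFE2L2 replicate 3.

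Among NRF2 targets 10 of 41 tested members fell (24.4%, against 11.8% of all genes) while 3 rose (median -0.20). Falls numbered 5 without CTNNB1/NFE2L2 replicate 2 and 6 without triple replicates 1 or 3. A fit of only the 6 libraries gave 16 falls, and leaving out the 3 marked libraries gave 6. Ferritin light chain, Ftl1, had 7422, 7212 and 6216 CPM in triple livers, against 15427, 15431 and 12273 CPM in CTNNB1/NFE2L2 livers (log2 fold change -1.05 ± 0.23, adjusted p = 0.00363), with all triple libraries lower. Gsta1, a glutathione transferase from a multi-copy family, had 161, 149 and 152 CPM in triple livers, against 321, 404 and 369.5 CPM in CTNNB1/NFE2L2 livers (log2 fold change -1.24 ± 0.27, adjusted p = 0.00540). Gstm4 fell with a log2 fold change of -0.83 ± 0.18 (adjusted p = 0.00338). Slc48a1, a haem transporter, rose with a log2 fold change of 0.85 ± 0.13 (adjusted p = 4.69e-04; opposite strand, Hdac7), and G6pdx, the first enzyme of the pentose phosphate pathway, with one of 0.96 ± 0.19 (adjusted p = 0.00244; opposite strand, Ikbkg). The classical targets Nqo1 (log2 fold change 0.11 ± 0.15, adjusted p = 0.627), Gclc (log2 fold change 0.39 ± 0.21, adjusted p = 0.195), Srxn1 (log2 fold change -0.00078 ± 0.21, adjusted p = 0.998) and Slc7a11 (log2 fold change -0.0028 ± 0.36, adjusted p = 0.997) did not pass. Both groups held Nqo1 well above wild type, with 295, 261 and 249 CPM in triple livers, against 243, 249 and 251 CPM in CTNNB1/NFE2L2 livers and 5.38 ± 0.489 CPM in wild-type livers.

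Alb, which encodes serum albumin, had 54976, 48189 and 51333 CPM in triple livers, against 16452, 14265 and 19827 CPM in CTNNB1/NFE2L2 livers. The groups were clearly separated (log2 fold change 1.61 ± 0.21, adjusted p = 9.08e-05). Wild-type livers had 50866 ± 10972 CPM of Alb, at the level of the triple livers. The whole list of secreted hepatocyte proteins stayed below wild type, with summed levels of 95160 to 101800 CPM in triple livers. It summed to 54240 to 66250 CPM in CTNNB1/NFE2L2 livers and 126100 to 146000 CPM in wild-type livers. Ahsg, the plasma protein fetuin-A, rose with a log2 fold change of 0.89 ± 0.16 (adjusted p = 9.66e-04) and coagulation factor F11 with one of 0.80 ± 0.12 (adjusted p = 3.55e-04), while Hrg, histidine-rich glycoprotein, had 257, 332 and 332 CPM in triple livers, against 509, 701 and 687 CPM in CTNNB1/NFE2L2 livers (log2 fold change -1.04 ± 0.17, adjusted p = 6.54e-04). Over the secreted hepatocyte proteins 5 of 30 rose (16.7%) and 1 fell (median 0.046). Here falls numbered 2 without triple replicate 3 or CTNNB1/NFE2L2 replicate 2. DESeq2 gave 7 rises and 6 falls in this list, and total-count scaling 8 rises and 1 fall. Hepatocyte transcription factors gave 2 rises and 2 falls of 22. The rises numbered 0 without triple replicate 1 or CTNNB1/NFE2L2 replicates 1, 2 or 3, and the falls 0 without triple replicate 1 and 1 without triple replicates 2 or 3 or CTNNB1/NFE2L2 replicates 2 or 3.

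In the bile acid synthesis and transport list 10 of 20 tested members fell and 0 rose, or 50% against 11.8% of all genes (median -0.62). Here falls numbered 6 without triple replicate 2. Cyp8b1, the sterol 12-hydroxylase, had 29.1, 41.9 and 42.7 CPM in triple livers, against 94.5, 137 and 234 CPM in CTNNB1/NFE2L2 livers (log2 fold change -2.03 ± 0.40, adjusted p = 0.00333). The bile salt export pump Abcb11 had 218, 241 and 299 CPM in triple livers, against 560.2, 466 and 497 CPM in CTNNB1/NFE2L2 livers (log2 fold change -1.01 ± 0.19, adjusted p = 0.00130). The phospholipid exporter Abcb4 had 334, 231 and 263 CPM in triple livers, against 560.5, 599.6 and 568 CPM in CTNNB1/NFE2L2 livers (log2 fold change -1.06 ± 0.17, adjusted p = 5.53e-04). Groups did not overlap for these genes. Cyp7a1, the rate-limiting enzyme of bile acid synthesis, had 25.2, 87.9 and 76.0 CPM in triple livers, against 153, 200.04 and 231 CPM in CTNNB1/NFE2L2 livers and did not pass (log2 fold change -1.63 ± 0.57, adjusted p = 0.0588). Among ABC efflux transporters 7 of 14 fell and 2 rose. Members that rose numbered 1 without CTNNB1/NFE2L2 replicate 3. Abcb1b, P-glycoprotein, fell with a log2 fold change of -1.54 ± 0.22 (adjusted p = 2.82e-04) and the breast cancer resistance protein Abcg2 with one of -1.09 ± 0.18 (adjusted p = 6.11e-04), whereas Abcc5, a cyclic nucleotide exporter, had 171, 142 and 116.2 CPM in triple livers, against 48.1, 34.6 and 43.6 CPM in CTNNB1/NFE2L2 livers (log2 fold change 1.76 ± 0.18, adjusted p = 2.04e-05).

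Some genes of lipid uptake, storage and oxidation fell. Mogat1, a triglyceride synthesis enzyme, had 0.307, 0.192 and 0.681 CPM in triple livers, against 2.42, 4.18 and 4.95 CPM in CTNNB1/NFE2L2 livers (log2 fold change -3.26 ± 0.41, adjusted p = 7.56e-05). The fatty acid transporter Cd36 had 47.1, 37.3 and 43.3 CPM in triple livers, against 96.2, 171 and 95.7 CPM in CTNNB1/NFE2L2 livers (log2 fold change -1.51 ± 0.23, adjusted p = 4.61e-04). The triglyceride lipase Pnpla2 had 88.2, 67.0 and 71.5 CPM in triple livers, against 138, 221 and 211 CPM in CTNNB1/NFE2L2 livers (log2 fold change -1.33 ± 0.20, adjusted p = 3.58e-04). No triple library reached the lowest CTNNB1/NFE2L2 library in these genes. Lipid storage and transport gave 5 falls and 2 rises of 18, or 27.8% and 11.1%, against 11.8% and 13.1% of all genes. Here rises numbered 1 without triple replicates 1 or 3 or CTNNB1/NFE2L2 replicate 2. Fatty acid oxidation gave 7 falls (30.4%) and 3 rises (13%) of 23. Its median was only -0.089, and 10 of the 23 members had a fold change above 0. The falls numbered 4 without CTNNB1/NFE2L2 replicates 2 or 3, and the rises 1 without CTNNB1/NFE2L2 replicate 2. Ehhadh, a peroxisomal oxidation enzyme, fell with a log2 fold change of -0.88 ± 0.18 (adjusted p = 0.00231), and Bdh1, which makes 3-hydroxybutyrate, rose with a log2 fold change of 0.97 ± 0.13 (adjusted p = 1.08e-04). Fatty acid synthesis gave 3 rises and 1 fall of 17, with the elongase Elovl6 at 1.07 ± 0.18 (adjusted p = 7.76e-04) and Acacb, the carboxylase that restrains mitochondrial oxidation, at -1.35 ± 0.28 (adjusted p = 0.00416). Cholesterol synthesis gave 0 rises and 0 falls of 20 by edgeR over all libraries, with 2 members at an unadjusted p under 0.05. A fit of only the 6 libraries gave 2 rises and 6 falls, DESeq2 0 and 2, and RLE scaling or a term for unmapped reads 0 and 1.

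Amino acid breakdown enzymes gave 9 falls and 0 rises of 34 (26.5%, against 11.8% of all genes; median -0.34). Sardh, sarcosine dehydrogenase, fell with a log2 fold change of -1.01 ± 0.18 (adjusted p = 0.00125) and Hgd, of tyrosine breakdown, with one of -0.73 ± 0.15 (adjusted p = 0.00250). The rises numbered 1 without CTNNB1/NFE2L2 replicate 3. With DESeq2 the list had 15 falls and 1 rise. Glycolysis gave 6 rises and 2 falls of 23 (26.1% and 8.7%, against 13.1% and 11.8% of all genes). Here rises numbered 2 without CTNNB1/NFE2L2 replicate 2 and 3 without triple replicate 1 or CTNNB1/NFE2L2 replicate 3. Pkm, the pyruvate kinase of fetal and tumour tissue, had 525, 305 and 335 CPM in triple livers, against 174, 183 and 137 CPM in CTNNB1/NFE2L2 livers (log2 fold change 1.24 ± 0.26, adjusted p = 0.00380). Pklr, the liver form, rose as well (log2 fold change 0.72 ± 0.15, adjusted p = 0.00257). The lactate dehydrogenase subunit Ldhb fell with a log2 fold change of -0.98 ± 0.17 (adjusted p = 9.73e-04). Of the gluconeogenesis and glycogen genes 2 of 12 rose and 1 fell; mitochondrial Pck2, which makes phosphoenolpyruvate, rose with a log2 fold change of 0.99 ± 0.19 (adjusted p = 0.00178) and glycogen synthase Gys2 fell with a log2 fold change of -0.74 ± 0.16 (adjusted p = 0.00342).

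Xenobiotic metabolism genes fell more often than they rose, with 14 of 31 falling (45.2%, against 11.8% of all genes) and 3 rising (median -0.66). Por, the reductase that supplies electrons to P450 enzymes, had 477, 391 and 447 CPM in triple livers, against 646, 1165 and 1136 CPM in CTNNB1/NFE2L2 livers (log2 fold change -1.16 ± 0.22, adjusted p = 0.00162). The bilirubin-conjugating Ugt1a1 had 69.5, 70.5 and 71.8 CPM in triple livers, against 116.7, 173 and 156 CPM in CTNNB1/NFE2L2 livers (log2 fold change -1.07 ± 0.14, adjusted p = 1.31e-04). The rises were Cyp1a1 and the female-biased pair Cyp2b9 and Cyp2b13. Cyp1a1, an aryl hydrocarbon receptor target, had 120.3, 64.1 and 97.2 CPM in triple livers, against 10.97, 13.0 and 11.4 CPM in CTNNB1/NFE2L2 livers (log2 fold change 2.99 ± 0.25, adjusted p = 4.95e-06). Cyp2b9 had 23.7, 41.4 and 47.7 CPM in triple livers, against 1.45, 1.25 and 1.45 CPM in CTNNB1/NFE2L2 livers (log2 fold change 4.76 ± 0.28, adjusted p = 2.21e-07). Cyp2b13 rose with a log2 fold change of 3.72 ± 0.67 (adjusted p = 0.00203), with reads of these close copies hard to separate. No library of 1 group entered the range of the other for Cyp1a1 or Cyp2b9.

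Sex-biased liver genes, which in normal liver follow the pattern of growth hormone release, were examined because all mice were male. Among female-biased genes 7 of 15 rose and 0 fell, or 46.7% against 13.1% of all genes (median 1.79). The falls numbered 1 without CTNNB1/NFE2L2 replicate 1. Hao2, a hydroxyacid oxidase, had 0.768, 2.45 and 1.51 CPM in triple livers, against 0.242, 0.157 and 0.0556 CPM in CTNNB1/NFE2L2 livers (log2 fold change 3.29 ± 0.56, adjusted p = 8.73e-04). Prom1, a cell-surface glycoprotein also used as a progenitor marker, had 39.5, 43.6 and 42.4 CPM in triple livers, against 7.54, 4.34 and 3.89 CPM in CTNNB1/NFE2L2 livers (log2 fold change 2.98 ± 0.24, adjusted p = 3.47e-06). Among male-biased genes 5 of 16 fell and 1 rose (31.2% and 6.25%, against 11.8% and 13.1% of all genes; median -0.72). Here falls numbered 3 without triple replicate 1 or CTNNB1/NFE2L2 replicates 1 or 3. Cyp2b9 was 100.02 ± 11.1 CPM in CTNNB1/MET, 90.5 ± 6.09 CPM in NFE2L2/MET and 0.687 ± 0.406 CPM in wild-type livers, so all 3 groups with human MET exceeded both groups without it. The growth hormone axis list gave 1 rise, Jak2 (0.59 ± 0.13, adjusted p = 0.00372), and 1 fall of 14. The falls numbered 0 without triple replicates 1 or 2 or CTNNB1/NFE2L2 replicates 1 or 3 and 2 without CTNNB1/NFE2L2 replicate 2.

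Of 23 tested oncofetal and liver tumour genes 9 rose (39.1%) and 1 fell (median 0.88). Here falls numbered 0 without CTNNB1/NFE2L2 replicate 2 and 2 without triple replicate 1 or CTNNB1/NFE2L2 replicate 3. Afp, α-fetoprotein, had 1974, 881 and 763 CPM in triple livers, against 148, 138 and 119.8 CPM in CTNNB1/NFE2L2 livers (log2 fold change 3.15 ± 0.49, adjusted p = 7.76e-04), with triple replicate 1 far above the other triple libraries and all triple libraries above CTNNB1/NFE2L2. Robo1, a guidance receptor, had 15.7, 9.52 and 8.17 CPM in triple livers, against 3.14, 3.19 and 2.61 CPM in CTNNB1/NFE2L2 livers (log2 fold change 1.89 ± 0.25, adjusted p = 1.16e-04). The Golgi protein gene Golm1 rose with a log2 fold change of 0.88 ± 0.12 (adjusted p = 1.74e-04). H19, an imprinted fetal RNA, had 44.5, 16.6 and 10.8 CPM in triple livers, against 5.31, 7.32 and 3.89 CPM in CTNNB1/NFE2L2 livers (log2 fold change 2.12 ± 0.66, adjusted p = 0.0369); without triple replicate 1 or any CTNNB1/NFE2L2 library its adjusted p reached 0.180. Among 5 tested genes of the imprinted Dlk1 to Dio3 region, Dlk1 was the only one called.

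The epithelial keratin, junction and adhesion list gave 10 rises and 0 falls of 25 (median 0.53). Vil1, villin of microvilli, had 33.6, 18.1 and 9.54 CPM in triple livers, against 1.21, 0.941 and 1.45 CPM in CTNNB1/NFE2L2 livers (log2 fold change 4.09 ± 0.50, adjusted p = 1.17e-04), with Usp37 on the opposite strand. Cdh1, E-cadherin, had 114, 99.9 and 81.9 CPM in triple livers, against 47.8, 21.0 and 24.8 CPM in CTNNB1/NFE2L2 livers (log2 fold change 1.66 ± 0.24, adjusted p = 4.46e-04). The tight junction protein cingulin, Cgn, rose with a log2 fold change of 1.13 ± 0.15 (adjusted p = 1.03e-04). The mesenchymal and invasion list gave 10 rises and 0 falls of 31 (median 0.68). Itga6, integrin α6, had 15.8, 17.7 and 15.6 CPM in triple livers, against 4.88, 4.65 and 3.11 CPM in CTNNB1/NFE2L2 livers (log2 fold change 1.95 ± 0.23, adjusted p = 4.75e-05). Its partner Itgb4 had 13.7, 5.67 and 3.31 CPM in triple livers, against 2.17, 1.78 and 1.67 CPM in CTNNB1/NFE2L2 livers (log2 fold change 2.002 ± 0.44, adjusted p = 0.00425). The log2 fold change of Itgb4 was 1.26 without triple replicate 1. Anxa2, a membrane-binding annexin, rose with a log2 fold change of 1.13 ± 0.24 (adjusted p = 0.00439).

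Matrix genes gave 10 rises and 0 falls of 30 (median 0.68). The rises numbered 5 without CTNNB1/NFE2L2 replicate 3 and 6 without triple replicate 1. Without the 3 marked libraries they numbered 16. Nid1, the basement membrane protein nidogen, had 218, 163 and 139 CPM in triple livers, against 31.4, 25.7 and 20.3 CPM in CTNNB1/NFE2L2 livers (log2 fold change 2.75 ± 0.22, adjusted p = 3.48e-06). Reln, a glycoprotein of hepatic stellate cells, had 363, 277 and 281 CPM in triple livers, against 26.3, 37.3 and 40.5 CPM in CTNNB1/NFE2L2 livers (log2 fold change 3.15 ± 0.23, adjusted p = 1.77e-06). Lum, the fibroblast proteoglycan lumican, had 6.81, 5.34 and 5.35 CPM in triple livers, against 2.75, 1.93 and 2.11 CPM in CTNNB1/NFE2L2 livers (log2 fold change 1.36 ± 0.19, adjusted p = 2.19e-04). All triple libraries lay above all CTNNB1/NFE2L2 libraries. Stellate cell and fibroblast markers summed to 836 to 1205 CPM in triple livers, against 315 to 479 CPM in CTNNB1/NFE2L2 livers, and 8 of 20 rose with 0 falls. Here rises numbered 4 without CTNNB1/NFE2L2 replicate 3 and 5 without CTNNB1/NFE2L2 replicate 2. Their part in the matrix rises was not tested. The TGF-β, BMP and YAP target list gave 6 rises and 2 falls of 27. Members that rose numbered 3 without triple replicate 1 or CTNNB1/NFE2L2 replicate 2. Tgfbi, a TGF-β-induced matrix protein, rose with a log2 fold change of 1.14 ± 0.13 (adjusted p = 4.34e-05), and Inhbe, an activin subunit of hepatocytes, with one of 1.61 ± 0.33 (adjusted p = 0.00380), whereas Id3, a BMP target, fell with a log2 fold change of -0.83 ± 0.18 (adjusted p = 0.00348).

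MHC class II genes rose almost throughout. Of 11 tested members 10 rose (90.9%, against 13.1% of all genes) and 0 fell, with a median of 1.70; H2-Oa was too low to test. Here falls numbered 1 without triple replicate 1. Their promoters are shown because they share a composite element read by the class II transactivator, Ciita, together with the factors bound at its X and Y boxes. The Y box was searched as GATTGG, on both strands, and is in capitals in the windows of 5 members.
H2-Aa: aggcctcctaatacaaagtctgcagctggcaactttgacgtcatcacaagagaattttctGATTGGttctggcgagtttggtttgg
H2-Eb1: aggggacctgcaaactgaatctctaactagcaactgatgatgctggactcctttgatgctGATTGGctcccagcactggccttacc
H2-DMb1: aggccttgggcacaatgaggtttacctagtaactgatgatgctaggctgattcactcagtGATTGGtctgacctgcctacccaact
H2-DMb2: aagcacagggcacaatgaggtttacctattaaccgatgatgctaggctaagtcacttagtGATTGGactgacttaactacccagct
H2-Ob: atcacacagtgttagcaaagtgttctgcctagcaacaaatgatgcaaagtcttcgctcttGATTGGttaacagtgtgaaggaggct
They span chr17:34287847-34287932 (minus strand), chr17:34305747-34305832, chr17:34153069-34153154, chr17:34145098-34145183 and chr17:34238787-34238872 (plus strand) in GRCm38.p6. GATTGG was in 7 of 9 class II pathway genes with a promoter in the RefSeq table (77.8%) and in 5292 of all 32851 promoters (16.1%). It was also in 60% of stress response, 46.7% of class I and 42.3% of amino acid and nucleotide synthesis genes with a promoter. In the other lists searched the share was 5.26% to 23.1%. The H2-DMa match, 1 of the 7, began at -199 from the gene start, against -91 to -35 in the others.

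Ciita had 9.32, 6.54 and 7.15 CPM in triple livers, against 2.32, 1.46 and 0.778 CPM in CTNNB1/NFE2L2 livers (log2 fold change 2.32 ± 0.32, adjusted p = 1.90e-04). Its exons overlap Dexi on the opposite strand. H2-Aa, the α chain of I-A, had 181, 93.8 and 131 CPM in triple livers, against 47.4, 40.9 and 28.5 CPM in CTNNB1/NFE2L2 livers (log2 fold change 1.79 ± 0.28, adjusted p = 7.76e-04). Cd74, the invariant chain, had 277, 149 and 180.4 CPM in triple livers, against 99.2, 75.5 and 55.8 CPM in CTNNB1/NFE2L2 livers (log2 fold change 1.40 ± 0.26, adjusted p = 0.00179). Triple replicate 1 was the highest library for these genes, and the groups did not overlap. H2-Eb1 (2.24 ± 0.36), H2-DMb1 (1.82 ± 0.29) and H2-DMb2 (1.88 ± 0.31) rose with adjusted p = 5.01e-04, 4.94e-04 and 6.71e-04. H2-Ob, of the peptide-exchange inhibitor DO, rose with a call that was lost without triple replicate 1 or 3 or CTNNB1/NFE2L2 replicate 2 or 3 (adjusted p = 0.0256, and up to 0.122). The whole class II list summed to 457 to 816 CPM in triple livers, against 200.4 to 311 CPM in CTNNB1/NFE2L2 livers.

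Class I genes rose too, with 9 of 18 rising and 1 falling (median 0.41); the fall, of the secreted class I gene H2-Q10, was lost in every fit that left out a library other than triple replicate 3. The class I transactivator Nlrc5 had 20.1, 16.4 and 22.4 CPM in triple livers, against 5.51, 7.11 and 6.78 CPM in CTNNB1/NFE2L2 livers (log2 fold change 1.60 ± 0.27, adjusted p = 9.74e-04). The immunoproteasome subunit Psmb8 had 87.8, 76.0 and 86.5 CPM in triple livers, against 30.6, 28.5 and 30.3 CPM in CTNNB1/NFE2L2 livers (log2 fold change 1.49 ± 0.20, adjusted p = 1.94e-04). The peptide transporter Tap1 rose with a log2 fold change of 1.15 ± 0.18 (adjusted p = 4.11e-04), sharing exons with Psmb9 on the opposite strand. Interferon response genes gave 12 rises and 2 falls of 35 (34.3% and 5.71%, against 13.1% and 11.8% of all genes). The falls numbered 1 without triple replicates 1 or 3 or CTNNB1/NFE2L2 replicates 1 or 2. The GTPase Iigp1 had 536, 434 and 645 CPM in triple livers, against 157, 149 and 206 CPM in CTNNB1/NFE2L2 livers (log2 fold change 1.66 ± 0.18, adjusted p = 1.81e-05). Not all members followed, since Oasl1 (log2 fold change -1.13 ± 0.28, adjusted p = 0.00818), an antiviral synthetase-like gene, fell.

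Cxcl9, a T-cell attractant induced by interferon-γ, had 78.1, 47.8 and 75.4 CPM in triple livers, against 8.65, 8.10 and 5.28 CPM in CTNNB1/NFE2L2 livers (log2 fold change 3.19 ± 0.41, adjusted p = 2.49e-04). Ccl8, a monocyte attractant, had 4.04, 1.49 and 1.26 CPM in triple livers, against 0.0483, 0.209 and 0.111 CPM in CTNNB1/NFE2L2 livers (log2 fold change 4.14 ± 0.71, adjusted p = 0.00114). Triple libraries exceeded CTNNB1/NFE2L2 libraries for both. Over the chemokine list 5 of 19 rose and 1 fell. Here rises numbered 3 without triple replicate 1 and 10 without CTNNB1/NFE2L2 replicate 1, and the falls 2 without triple replicate 3. DESeq2 gave 8 rises. The fall was Ccl25 (-0.90 ± 0.23, adjusted p = 0.00941). NF-κB and inflammatory signalling gave 5 rises and 0 falls of 20. The rises numbered 3 without triple replicate 1. Ptgs2, cyclooxygenase-2, had 13.0, 7.36 and 4.67 CPM in triple livers, against 0.531, 0.732 and 0.0556 CPM in CTNNB1/NFE2L2 livers (log2 fold change 4.20 ± 0.65, adjusted p = 5.58e-04). Acute phase genes gave 5 rises and 1 fall of 25. Here rises numbered 1 without triple replicate 1 or CTNNB1/NFE2L2 replicate 2 and 2 without triple replicate 3 or CTNNB1/NFE2L2 replicate 1 and 3 without triple replicate 2, and the falls 2 without triple replicate 3 or CTNNB1/NFE2L2 replicate 1. Rises numbered 12 in a fit of only the 6 libraries, 8 with DESeq2 and 2 without the 3 marked libraries. Cp, ceruloplasmin, rose with a log2 fold change of 1.25 ± 0.18 (adjusted p = 2.88e-04), and Orm3, an orosomucoid from a multi-copy family, fell with a log2 fold change of -2.77 ± 0.66 (adjusted p = 0.00924). Complement gave 5 rises and 2 falls of 20 (25% and 10%, against 13.1% and 11.8% of all genes). The rises numbered 1 without CTNNB1/NFE2L2 replicate 2 and 2 without triple replicates 1 or 3 or CTNNB1/NFE2L2 replicate 1, and the falls 0 without triple replicates 1 or 2 or CTNNB1/NFE2L2 replicate 3 and 1 without CTNNB1/NFE2L2 replicates 1 or 2. Leaving out the 3 marked libraries gave 2 rises. Pdcd1, the checkpoint receptor PD-1, was too low to test, with 11, 5 and 7 counts in triple livers, against 0, 0 and 0 counts in CTNNB1/NFE2L2 livers.

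Monocyte and neutrophil, dendritic, T and NK, and B and plasma cell marker sums were higher in every triple library than in every CTNNB1/NFE2L2 library. The part of these cells in the class II, interferon and chemokine results was not tested. Monocyte and neutrophil markers summed to 25.6 to 52.6 CPM in triple livers, against 11.2 to 17.2 CPM in CTNNB1/NFE2L2 livers, and 5 of 8 rose with 0 falls. Here rises numbered 3 without triple replicate 1 or CTNNB1/NFE2L2 replicates 1, 2 or 3. Ccr2, a receptor of inflammatory monocytes, had 8.24, 3.51 and 3.21 CPM in triple livers, against 1.40, 0.888 and 0.723 CPM in CTNNB1/NFE2L2 livers (log2 fold change 2.29 ± 0.42, adjusted p = 0.00121). Dendritic cell markers summed to 39.3 to 50.7 CPM in triple livers, against 26.7 to 39.0 CPM in CTNNB1/NFE2L2 livers, and 4 of 11 rose. Members that rose numbered 1 without triple replicates 1 or 2 or CTNNB1/NFE2L2 replicates 2 or 3 and 2 without CTNNB1/NFE2L2 replicate 1. Their marker Itgax, CD11c, had 6.14, 3.37 and 4.18 CPM in triple livers, against 1.30, 0.941 and 0.889 CPM in CTNNB1/NFE2L2 livers (log2 fold change 2.11 ± 0.37, adjusted p = 9.05e-04). T and NK cell markers summed to 20.6 to 26.7 CPM in triple livers, against 10.5 to 17.4 CPM in CTNNB1/NFE2L2 livers, with 5 of 13 rising. Here rises numbered 0 without CTNNB1/NFE2L2 replicates 2 or 3 and 1 without triple replicate 1 and 3 without triple replicate 2. B and plasma cell markers summed to 9.42 to 18.6 CPM in triple livers, against 6.17 to 6.39 CPM in CTNNB1/NFE2L2 livers, with 2 of 7 rising. The rises numbered 1 without triple replicate 2 or CTNNB1/NFE2L2 replicate 2. Jchain, the immunoglobulin joining chain, had 2.15, 11.3 and 7.15 CPM in triple livers, against 0.338, 0.314 and 0.333 CPM in CTNNB1/NFE2L2 livers (log2 fold change 4.36 ± 0.61, adjusted p = 3.16e-04). Macrophage and Kupffer cell markers, the most abundant immune list, summed to 1195 to 1625 CPM in triple livers, against 1152 to 1445 CPM in CTNNB1/NFE2L2 livers and overlapped between the groups; 1 of 22 rose, Lyz2. The rises numbered 0 without triple replicates 1 or 3 or CTNNB1/NFE2L2 replicates 2 or 3 and 4 without CTNNB1/NFE2L2 replicate 1 and 5 without triple replicate 2. Here falls numbered 2 without triple replicate 1.

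**Figure D4:**
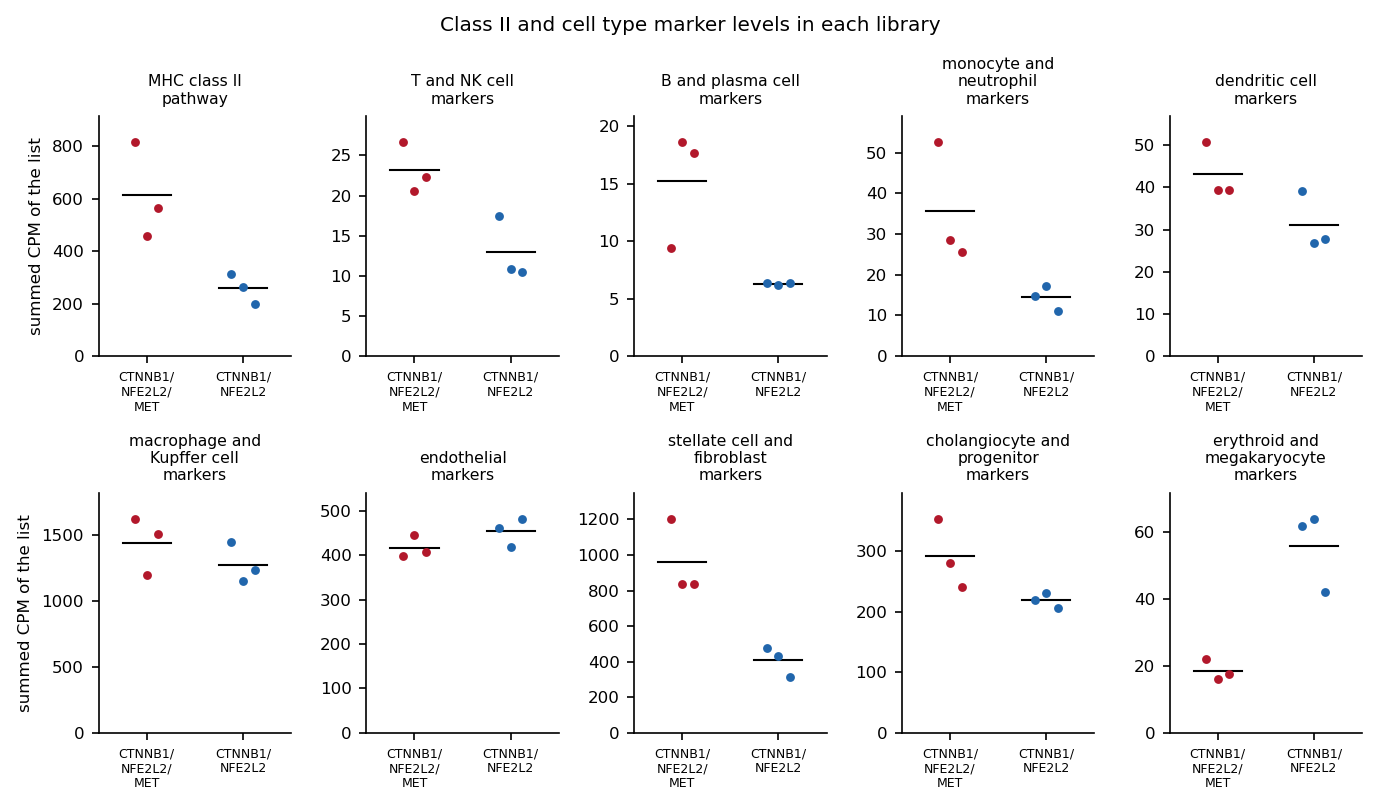
Summed CPM (y axes, from 0) of the class II pathway list and 9 cell type marker lists in the 3 triple (CTNNB1/NFE2L2/MET, red) and 3 CTNNB1/NFE2L2 (blue) libraries; points are libraries and bars are means. The class II, stellate cell and monocyte sums are higher in every triple library, the macrophage and endothelial sums overlap, and the erythroid and megakaryocyte sum is lower in every triple library.

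Erythroid and megakaryocyte markers fell. Their sum was 15.96 to 22.0 CPM in triple livers, against 42.0 to 64.0 CPM in CTNNB1/NFE2L2 livers, and 5 of 7 tested members fell with 0 rises. Slc4a1, the anion exchanger of red cells, had 2.05, 0.385 and 0.632 CPM in triple livers, against 19.6, 21.7 and 9.73 CPM in CTNNB1/NFE2L2 livers (log2 fold change -4.06 ± 0.47, adjusted p = 5.65e-05). Wild-type livers had 0.251 ± 0.161 CPM of Slc4a1, so for this gene the CTNNB1/NFE2L2 libraries were the high ones. The sum of the whole list was 24.7 to 32.4 CPM in wild-type and 36.8 to 44.15 CPM in CTNNB1/MET livers, both above the triple range. In NFE2L2/MET livers it was 19.8 to 21.1 CPM, within that range. Globin genes had 0 counts in all 6 libraries and were not tested. Endothelial markers gave 1 rise and 2 falls of 22 with sums of 399 to 447 CPM in triple livers, against 419 to 484 CPM in CTNNB1/NFE2L2 livers; the rise was lost without triple replicate 1. The falls numbered 1 without triple replicates 1 or 3 or CTNNB1/NFE2L2 replicates 1, 2 or 3. Cholangiocyte and progenitor markers summed to 241 to 354 CPM in triple livers, against 205 to 232 CPM in CTNNB1/NFE2L2 livers, with 5 of 13 rising and 1 falling. Besides Tspan8, Pkhd1, a protein of biliary cilia, rose with a log2 fold change of 2.29 ± 0.33 (adjusted p = 2.36e-04), while the biliary markers Krt19 (log2 fold change 0.95 ± 0.40, adjusted p = 0.0976), Sox9 (log2 fold change -0.33 ± 0.29, adjusted p = 0.439) and Epcam (log2 fold change 0.42 ± 0.24, adjusted p = 0.210) did not pass.

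In the iron handling list 4 of 19 tested members fell and 2 rose. Here rises numbered 0 without triple replicate 1 or CTNNB1/NFE2L2 replicate 2 and 1 without CTNNB1/NFE2L2 replicate 3. Hfe2, the hemojuvelin co-receptor that supports hepcidin production, had 53.04, 69.5 and 82.4 CPM in triple livers, against 156, 183 and 154 CPM in CTNNB1/NFE2L2 livers (log2 fold change -1.27 ± 0.14, adjusted p = 2.55e-05). The iron regulatory protein Aco1 fell with a log2 fold change of -0.52 ± 0.11 (adjusted p = 0.00336). Hypoxia and angiogenesis genes gave 2 rises and 1 fall of 19: Hif1a, the oxygen-regulated transcription factor subunit (0.70 ± 0.13, adjusted p = 0.00133), and Egln3, an oxygen sensor (1.08 ± 0.19, adjusted p = 0.00125), rose, and the growth factor gene Vegfb fell (-0.87 ± 0.17, adjusted p = 0.00204). Immediate early and heat shock genes gave 4 falls and 0 rises of 20. The falls numbered 1 without triple replicate 3 or CTNNB1/NFE2L2 replicate 1 and 2 without triple replicate 2 and 8 without CTNNB1/NFE2L2 replicate 3. They numbered 7 with DESeq2 and 1 without the 3 marked libraries. Among them the small heat shock protein Hspb1 had 77.4, 84.6 and 68.4 CPM in triple livers, against 336, 195 and 146 CPM in CTNNB1/NFE2L2 livers (log2 fold change -1.56 ± 0.32, adjusted p = 0.00414). Core clock genes gave 2 falls and 0 rises of 19. Here falls numbered 0 without triple replicate 2 or CTNNB1/NFE2L2 replicates 2 or 3 and 1 without triple replicate 1, and the rises 1 without triple replicate 3. Immune checkpoint genes gave 2 rises and 1 fall of 12. Members that rose numbered 0 without triple replicate 1 and 1 without CTNNB1/NFE2L2 replicates 2 or 3, and the falls 0 without triple replicate 1 or CTNNB1/NFE2L2 replicates 2 or 3.

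Markers of tissue outside the liver were summed in the same way. Of the pancreatic acinar markers, 6 were too low to test, with 0 or 1 counts in each of the 6 libraries, so their sum rests on the 3 tested. Pancreatic acinar markers summed to 87.1 to 123 CPM in triple livers, against 70.1 to 96.4 CPM in CTNNB1/NFE2L2 livers, and Cela1, an elastase, made the only call of 3 tested (log2 fold change 0.46 ± 0.15, adjusted p = 0.0370). Here rises numbered 0 without triple replicates 2 or 3 or CTNNB1/NFE2L2 replicates 1 or 2. Nerve and muscle markers summed to 18.8 to 31.1 CPM in triple livers, against 36.7 to 45.5 CPM in CTNNB1/NFE2L2 livers, with 1 fall of 7, S100b (log2 fold change -2.24 ± 0.27, adjusted p = 4.82e-05). The falls numbered 2 without triple replicate 3. Adipocyte and mesothelial markers summed to 2.72 to 5.79 CPM in triple livers, against 4.599 to 5.39 CPM in CTNNB1/NFE2L2 livers and mast cell and basophil markers to 3.21 to 4.76 CPM in triple livers, against 3.29 to 5.45 CPM in CTNNB1/NFE2L2 livers, with overlapping ranges and no call among 4 and 1 tested members; without triple replicate 1 the adipocyte and mesothelial list had 1 fall.

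Across the lists, the shares called in each direction were read against the 13.1% of all tested genes that rose and the 11.8% that fell. The furthest above these values were class II genes among the rises and respiratory chain subunits among the falls. The shares of rises among mitosis genes and secreted hepatocyte proteins lay near that of all genes.

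**Figure D5:**
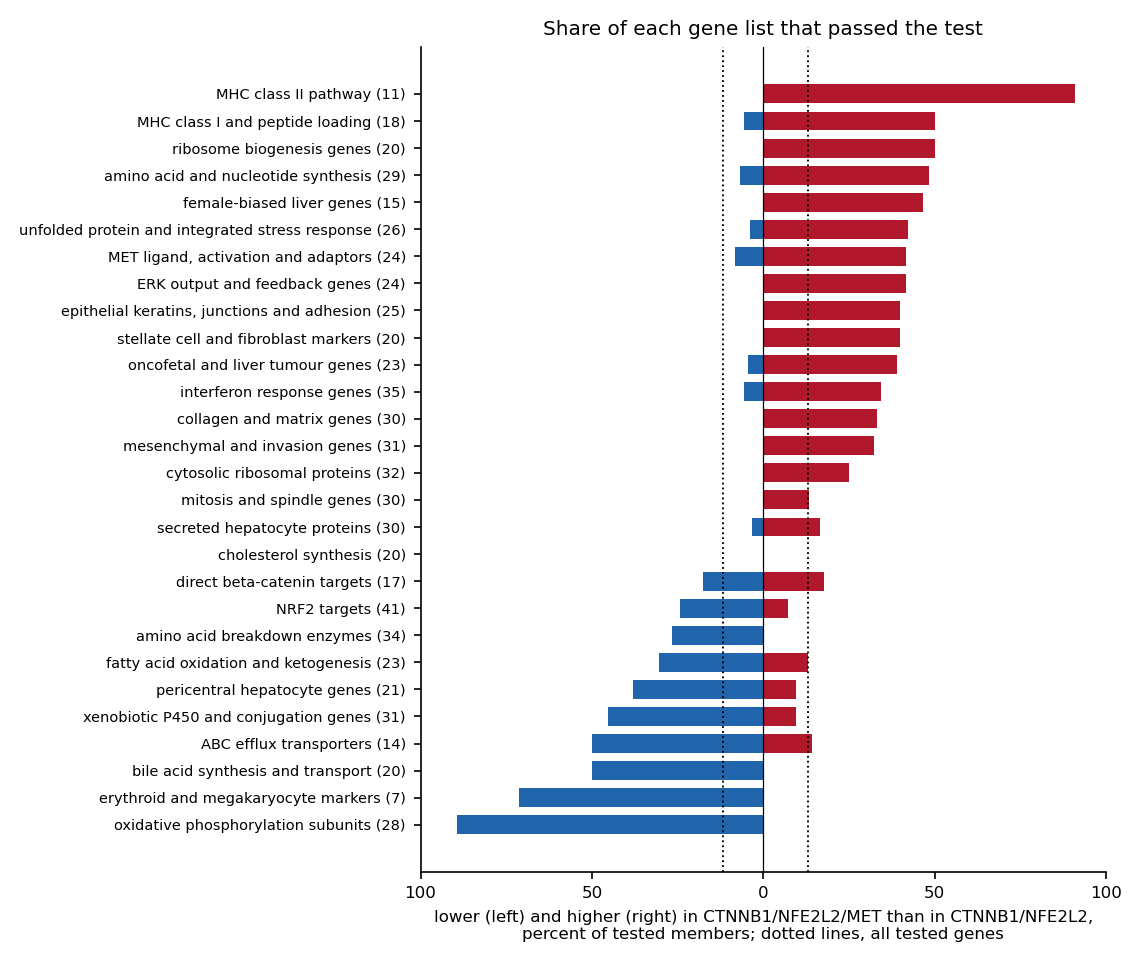
Percent of tested members that were higher (right, red) or lower (left, blue) in triple than in CTNNB1/NFE2L2 livers for 28 gene lists on the y axis, with the number tested in brackets; dotted lines mark the 13.1% and 11.8% of all tested genes. The MHC class II pathway reaches 90.9% to the right and oxidative phosphorylation subunits 89.3% to the left.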

How the data were processed

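RNA from fresh frozen liver was sequenced as polyA libraries, per the labels' protocols, and the 15 deposited tables hold unnormalized whole-number counts of reads per gene, which the authors made with Trimmomatic, STAR and the mm10 genome, per the submitters' processing notes; their versions were not given in the sources used here. The unstranded count column was used, and the rows that name no gene were left out of totals and tests. The counts do not separate human MET or mutant alleles from mouse genes. Genes with enough counts (edgeR's filterByExpr, on groups) were scaled by TMM and fitted with edgeR 4.0.16 (R 4.3.3) over all 15 libraries, which share 1 estimate of spread, with the quasi-likelihood F test and Benjamini-Hochberg adjustment over the 14098 tested genes.

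Groups came from the labels, and counting error is covered by the fit. In data simulated from these libraries, 86 of 100 genes with 2-fold and 94 of 100 with 4-fold changes were called, and 10 of 13688 unchanged genes. Changed genes were drawn only above a minimum level, and all other genes had the same mean in all groups. The real groups differed in many more genes, so these rates need not hold for this comparison or for low-count genes. Alternatives were RLE and total-count scaling, no filter, 1 strand column, DESeq2 1.42.0, only the 6 libraries, terms for marked libraries and unmapped reads, and leaving out each library. Named genes were, first, mouse counterparts of the 3 introduced factors; next, the 12 strongest rises and 12 strongest falls among called genes whose mean log2 CPM reached 3 (numbered gene models left out); and from each list the 4 members with the smallest p and up to 2 highly expressed members that did not pass. Some of these genes are not reported here. The 66 lists and the comparison were chosen with earlier results of these data known, and further list members and families found by symbol were added after values were seen. Coordinates and promoters are from RefSeq GRCm38.p6, the mm10 assembly. In the motif counts a gene of a list counted if any of its promoters matched, while the shares of all promoters count each promoter singly.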

Additional observations from a re-analysis of the deposited data

How the results depend on the processing

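The count of genes changed with human MET, 3520, was between 2969 (one-strand counts) and 3756 (DESeq2) under the alternatives that kept all 6 libraries or dropped the marked ones, and between 2259 and 3240 with 1 library left out. Rises (1853) ranged between 1141 and 1694 with 1 library left out, with 1230 without triple replicate 1 and 1141 without CTNNB1/NFE2L2 replicate 2; falls (1667) ranged between 1118 and 1546. Each such fit has fewer samples, and the cause of the larger drops was not tested. The share of rises among called genes was 52.6%, and 61.2% under total-count scaling and 47.9% under RLE scaling. Named genes tested numbered 575, but 565 with one-strand counts and 569 with only the 6 libraries. None that was called in the main or the alternative fit changed sign between them. Sign changes of genes called in neither fit were not counted. Of the 422 called in the main fit, between 3 (DESeq2) and 127 (without CTNNB1/NFE2L2 replicate 2) lost their call. DESeq2 gave 26 others a call. Over all genes, 2 were called with opposite signs in one-strand counts. Of 148 list and family counts, between 7 and 44 moved by over 1.5 times. No paired analysis was possible because replicates are numbered here only in accession order and nothing links a triple library to a CTNNB1/NFE2L2 library. Low counts limit genes such as Pdcd1, and human MET was not measured.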
